A study of Mus musculus with 6 samples.

Results

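Fcgr1, Fcgr2b, Fcgr3, Fcgr4 and Fcer1g encode the mouse receptors for the constant (Fc) part of immunoglobulin G (IgG) and their shared signaling chain. These 5 genes, of 32285 counted, were taken by symbol. Their counts of captured RNA molecules (unique molecular identifiers, UMIs) were summed per library over neutrophils, classical and nonclassical monocytes, macrophages, dendritic cells, B cells and NK cells. These 10 classes were gated cell by cell on marker genes that include none of the 5, and they held 30173 of the 51633 cells that passed the filters. The filters kept cells with at least 250 genes and at most 5% mitochondrial UMIs.

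Libraries of 6 mice were sequenced with a 10x droplet method that reads the 3' end of each RNA, 1 mouse for each treatment. The study's methods describe tumors grown in the ovarian bursa from KPCA, an ovarian cancer line of the mouse with intact homologous recombination, in female C57BL/6 mice of 6 to 8 weeks. The tissue named by the labels is instead lymph node, and the series text mentions young and aged mice. The groups were control (solvent and a control rat IgG), 2DG (2-deoxy-D-glucose, a glucose analog given every 2 days from day 9), 2FF (2-fluoro-L-fucose, a fucose analog given every 2 days, with the tumor cells kept in it for 3 days before injection), aPDL1 (an anti-PD-L1 antibody, 5 mg/kg 2 times a week for 3 weeks after day 9), and 2DG or 2FF combined with aPDL1. The labels name the 2FF compound as 2F-peracetyl-fucose instead. Mice were sacrificed on day 30, and a single mouse and its library preparation cannot be told apart from the treatment it stands for.

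The libraries held 61859753 to 73885214 UMIs, and 7703 to 9222 of their cells passed the filters. Any pair of libraries shared 16 to 34 cell barcodes. The control library stood apart in its composition. It held 3294 gated neutrophils, against 275 to 513 in each of the other libraries. It also held 397 T cells (1873 to 2940 in the others), 32 NK cells (210 to 505), 84 B cells (132 to 445) and 91 nonclassical monocytes (252 to 443). A cell of a class carried 62.8% to 87.8% of the markers of that class on average, a share that the gate itself raises. A total of 3573 cells resembled simulated doublets (2 cells read as 1) and were kept. Levels that change by over 1.5 times without them are given in the text. In summed counts, fewer cells that carry a gene and less RNA per cell cannot be told apart.

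Fc gamma receptors link antibodies to the cells that act on them. The activating receptors FcγRI (Fcgr1, of high affinity), FcγRIII (Fcgr3) and FcγRIV (Fcgr4) have almost no signaling part of their own and pair with the Fc receptor gamma chain (Fcer1g), whose ITAM motif recruits the kinase Syk once Src family kinases have phosphorylated it. FcγRIIb (Fcgr2b) instead carries an ITIM motif, recruits the phosphatase SHIP-1 (Inpp5d) and restrains the others. Macrophages and monocytes are known for engulfing antibody-coated cells, NK cells for killing them through FcγRIII, and B cells for carrying FcγRIIb as their Fc gamma receptor. The gamma chain also serves receptors that do not bind IgG.

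On GRCm38, the assembly that mm10 names, Fcgr1 lies alone on chromosome 3 (chr3:96282909-96293969, minus strand). The other genes lie within 276 kb of chromosome 1, in the order Fcgr2b (chr1:170958617-170976547, minus strand), Fcgr4 (chr1:171018920-171029761, plus strand), Fcgr3 (chr1:171051174-171064935, minus strand) and Fcer1g (chr1:171229572-171234365, minus strand). Gaps of 42, 21 and 165 kb separate them. Fcgr2b and Fcgr3 are paralogs. Of the 90-base windows of the longest transcript of Fcgr3, 5.09% also occur in Fcgr2b and in no other gene. For Fcgr2b, 5.27% also occur in Fcgr3 or in genes outside this family. None of the last 500 windows before the 3' end is shared for any of the 5 genes, which is where this method reads. An antisense gene, Gm38204, overlaps Fcgr2b.

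Fcgr1 and Fcgr4 are shown by their promoters, because these genes differed most between classical monocytes of high and low interferon response (described further on). Each sequence runs from base -250 to base -11 before the RefSeq start site on GRCm38.p6, and capitals mark a match to an interferon response motif. The stretch of Fcgr1 is chr3:96293980-96294219 (minus strand) and that of Fcgr4 is chr1:171018676-171018915 (plus strand).
Fcgr1: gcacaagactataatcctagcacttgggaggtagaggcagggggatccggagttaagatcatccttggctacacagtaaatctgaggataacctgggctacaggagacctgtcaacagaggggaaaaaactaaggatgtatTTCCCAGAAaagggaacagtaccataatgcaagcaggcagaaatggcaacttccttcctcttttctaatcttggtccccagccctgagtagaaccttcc
Fcgr4: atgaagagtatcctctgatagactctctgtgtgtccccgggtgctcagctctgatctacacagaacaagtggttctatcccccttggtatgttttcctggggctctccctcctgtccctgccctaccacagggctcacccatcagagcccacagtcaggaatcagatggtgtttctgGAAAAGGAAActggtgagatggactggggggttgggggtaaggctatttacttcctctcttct
The capitals in Fcgr1, bases -109 to -101, match the gamma-activated sequence (GAS), TTCNNNGAA. The capitals in Fcgr4, bases -73 to -64, match the interferon-stimulated response element (ISRE), searched as GAAA, then 2 free bases, then GAAA. Searched on both strands over the 250 bases before the start, the GAS letters occurred in 7.02% and the ISRE letters in 2.98% of 32851 mouse promoters. The same stretches of Fcgr2b, Fcgr3 and Fcer1g held neither match. The start sites used for Fcgr2b (170976071) and Fcgr3 (171059403) lie inside the annotated genes, and up to 187 of the 250 bases of Fcgr2b are annotated exon. Starts further upstream in these genes were not searched. The letters GAGGAAG, a core of sites bound by ETS factors of myeloid cells, occurred on the minus strand of Fcgr1 (-56 to -50), Fcgr4 (-23 to -17) and Fcgr3, and in 10.61% of all promoters. These are matches of letters and say nothing of binding in these cells.

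The level of each gene was measured in CPM, its UMIs per 1000000 UMIs summed over the class in a library. Levels are given as mean ± SD over the 6 libraries, whose spread holds mouse and treatment together. Macrophages and classical monocytes carried the most RNA of Fcgr1, Fcgr2b, Fcgr3 and Fcer1g. NK cells, T cells and plasmacytoid dendritic cells held little of any receptor. Fcgr2b in the last of these exceeded the T cell level with gated classes, but not with classes taken from clusters of cells. T cells, which normally carry little of these genes, were taken as the background of stray RNA and mixed droplets. Whether some T cells hold this RNA themselves was not tested. Their levels were 8.55 ± 3.66 CPM for Fcgr1, 23.3 ± 6.24 for Fcgr2b, 24.8 ± 7.38 for Fcgr3, 15.5 ± 5.61 for Fcgr4 and 86.2 ± 27.5 for Fcer1g (SD, n = 6).

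**Figure D1:**
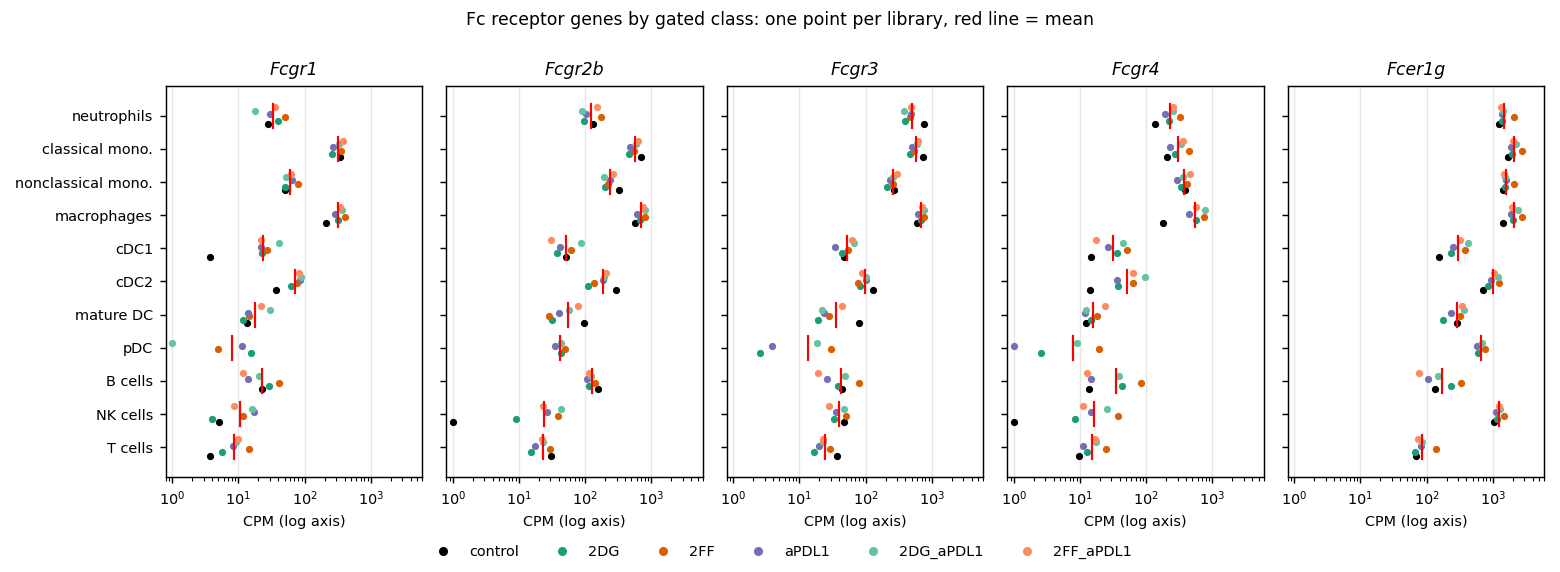
Level of each gene (CPM, log axis) in each gated class, 1 point per library and a red line at the mean, with values under 1 CPM drawn at 1. Macrophages and classical monocytes lead for Fcgr1 (means of 324 and 322 CPM), nonclassical monocytes rank below macrophages alone for Fcgr4 (374), and NK cells are high for Fcer1g only (1219).

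Fcgr1, the high-affinity receptor, separated 2 pairs of classes. It was at 324 ± 67.2 CPM in macrophages and 322 ± 47.1 in classical monocytes, and these 2 levels did not differ beyond their spread (macrophages higher in 4 of 6 libraries). Type 2 dendritic cells (cDC2, 72.1 ± 19.0) and nonclassical monocytes (59.7 ± 11) followed, again without a difference beyond the spread. Neutrophils were lower, at 33.7 ± 11.2 CPM, and at 17.7 ± 7.65 without cells resembling doublets. The remaining classes lay between 7.97 and 23.3 CPM. Without such cells Fcgr1 was at 0.888 CPM in plasmacytoid dendritic cells, where it had been 7.97.

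Fcgr2b, the inhibitory receptor, was at 701 ± 107 CPM in macrophages and 565 ± 92.7 in classical monocytes, with the difference within the spread (macrophages higher in 5 of 6 libraries). Nonclassical monocytes (241 ± 48.7) were lower than classical monocytes in 6 of 6 libraries and higher than cDC2 (188 ± 64.8) in 6 of 6. B cells (126 ± 18.9) and neutrophils (124 ± 33.9) could not be ordered. The levels of mature dendritic cells (55.2), type 1 dendritic cells (cDC1, 51.9) and plasmacytoid dendritic cells (42.5, 4 libraries with at least 20 cells) did not differ beyond their spread between neighbors in this order. Plasmacytoid dendritic cells exceeded T cells in all 4 of these libraries. Without cells resembling doublets Fcgr2b was at 34.1 CPM in them (3 libraries) and at 4.06 in T cells. With classes taken from clusters it was at 18.8 CPM in them (3 libraries) and at 60.1 in T cells.

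Fcgr3, an activating receptor, was high in neutrophils as well as in the monocyte lineage. It was at 688 ± 76.0 CPM in macrophages, 577 ± 99.5 in classical monocytes, 495 ± 138 in neutrophils and 255 ± 30.7 in nonclassical monocytes. Neutrophils exceeded nonclassical monocytes in 6 of 6 libraries. cDC2 (96.4 ± 18.6) and cDC1 (51.7 ± 12.2) were lower than these 4 classes. Without cells resembling doublets Fcgr3 was at 23.5 CPM in place of 36.2 in mature dendritic cells and at 6.96 in place of 13.5 in plasmacytoid dendritic cells.

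Fcgr4, the other activating receptor of this kind, was ordered differently. Its levels were 547 ± 218 CPM in macrophages, 374 ± 60.8 in nonclassical monocytes, 307 ± 90.3 in classical monocytes and 231 ± 62.8 in neutrophils. The first 3 of these did not differ from their neighbors beyond the spread, and classical monocytes exceeded neutrophils in 6 of 6 libraries. Without cells resembling doublets Fcgr4 was at 8.06 CPM in place of 15.7 in mature dendritic cells and at 3.92 in place of 7.84 in plasmacytoid dendritic cells. With each cell thinned to 1000 UMIs, 37.7% ± 12.3 of macrophages had an Fcgr4 UMI, against 0.868% ± 0.259 of T cells. Unthinned, the shares were 58.6% to 90.2% and 2.52% to 5.61%, at median depths of 9368 and 6097.5 UMIs per cell.

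Fcer1g, the signaling chain, was the most widely spread. Classical monocytes (2082 ± 363 CPM) and macrophages (2068 ± 449) did not differ beyond their spread, nonclassical monocytes (1600 ± 239) and neutrophils (1463 ± 313) followed, and NK cells (1219 ± 144) and cDC2 (992 ± 202) came next. Neutrophils exceeded NK cells, and NK cells exceeded cDC2, in 6 of 6 libraries. Plasmacytoid dendritic cells (655 ± 85.1, n = 4) held Fcer1g with little of Fcgr1, Fcgr3 and Fcgr4.

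In macrophages the genes were found in the same cells slightly more often than their separate shares give, in every pair and library. With each cell thinned to 1000 UMIs, the share of macrophages with both genes of a pair was 1.02 to 1.21 times the product of the single shares, over 10 pairs and 6 libraries.

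Classes were compared within libraries, with the library as a block, by the quasi-likelihood test of edgeR over all genes (adjusted p is the Benjamini-Hochberg value over all genes tested, called under 0.05). The change is the log2 fold change after TMM scaling, so it can differ from the ratio of CPM. The p-values measure how far the difference between the classes varied over 6 mice of different treatment.

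Nonclassical monocytes, which patrol the vessel wall, kept Fcgr4 and had less of the other 4 genes than classical monocytes. Of 12058 genes tested, 47.6% were called. Fcgr1 was at 49.7, 51.1, 78.4, 64.1, 52.3 and 62.6 CPM in nonclassical and at 345, 258, 351, 271, 327 and 378 CPM in classical monocytes (control, 2DG, 2FF, aPDL1, 2DG_aPDL1 and 2FF_aPDL1, the order used throughout). The classes did not overlap, and the log2 fold change was -2.47 (SE 0.109, edgeR adjusted p = 4.78e-09). Fcgr2b fell by 1.31 on the log2 scale (SE 0.0838), Fcgr3 by 1.24 (SE 0.0808) and Fcer1g by 0.453 (SE 0.0552), all lower in 6 of 6 libraries and with edgeR adjusted p between 9.28e-08 and 2.47e-05. Fcgr4 was at 385, 334, 414, 288, 362 and 462 CPM in nonclassical and at 203, 271, 442, 228, 333 and 366 CPM in classical monocytes, higher in 5 of 6 libraries. Its log2 difference of 0.23 (SE 0.0926) was not called (edgeR adjusted p = 0.0552) and passed without cells resembling doublets (0.27, adjusted p = 0.0241).

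Of 22 kinases and effectors below the ITAM, 12 rose in nonclassical monocytes and 3 fell, where 22.3% of all genes were called higher and 25.3% lower, with a median log2 difference of 0.32 against -0.0195 over all genes tested. Fyn (1.41) and Fgr (1.11), both Src family kinases, rose most, and Tec (-0.61) fell most. Of 12 phosphatases and adaptors below the ITIM, 9 rose and 2 fell (median 0.37), among them Cblb, a ubiquitin ligase (1.68), and Dok2, an adaptor (-2.77). Of 4 tested receptors that can pair with the gamma chain, 4 fell (median -0.99). Of 10 adaptors of activating receptors, 3 rose and 2 fell, and Tyrobp, the gamma chain's closest counterpart, was at -0.10 (not called).

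Between macrophages and classical monocytes, Fcgr4 was the only one of the 5 genes called. Of 13766 genes tested, 57.4% were called. Fcgr4 was at 180, 560, 756, 450, 767 and 572 CPM in macrophages, above the classical monocytes of the same library in all but the control, where it was 180 against 203. The log2 fold change was 0.59 (SE 0.180, edgeR adjusted p = 0.0185). The call rested on single libraries. It was lost without the 2DG, the 2FF, the aPDL1 or the 2DG_aPDL1 library (adjusted p of 0.0511 to 0.0656), and without the control library Fcgr2b (0.30), Fcgr3 (0.24) and Fcgr4 (0.79) were called. The 4 other genes lay between -0.18 (Fcer1g, edgeR adjusted p = 0.0869) and 0.16 (Fcgr2b, edgeR adjusted p = 0.339) in the full test. Among the kinases and effectors below the ITAM 16 of 22 fell and 2 rose (median -0.51), where 28.1% of all genes were called lower and 29.3% higher. Among the phosphatases and adaptors below the ITIM 7 of 12 fell and 3 rose, and among the adaptors of activating receptors 6 of 10 fell and 2 rose.

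Macrophages were also split by their genes. Those with more of Spp1, Gpnmb and Arg1 and those with more of Mrc1, Folr2, Cd163, Selenop and Pf4 showed no called difference in the 5 genes. Of 11704 genes tested, 18.1% were called, and none of the 5 was. Their log2 differences ran from 0.0844 (Fcgr1) to 0.18 (Fcgr2b), with edgeR adjusted p from 0.104 to 0.418. An unadjusted edgeR p under 0.05 was found for 3 of them and for 3707 of the 11704 genes. Of 22 kinases and effectors 3 rose on the Spp1 side and 1 fell, and of 19 interferon genes 11 rose and none fell.

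Neutrophils had far less Fcgr1 and Fcgr2b than classical monocytes, and no difference was called in Fcgr3 and Fcgr4. Of 14120 genes tested, 60.8% were called. Fcgr1 was at 28.3, 39.2, 51.2, 29.9, 18.0 and 35.7 CPM in neutrophils, and Fcgr2b at 132, 94.8, 173, 102, 91.0 and 153 CPM. Both lay below classical monocytes in every library, with log2 fold changes of -3.07 (SE 0.171, edgeR adjusted p = 5.15e-10) and -2.01 (SE 0.140, edgeR adjusted p = 6.56e-09). Fcgr3 differed by -0.0496 (SE 0.129, edgeR adjusted p = 0.756) and Fcgr4 by -0.22 (SE 0.106, edgeR adjusted p = 0.0843). Fcer1g fell by 0.323 (SE 0.111, edgeR adjusted p = 0.0193), a call lost with DESeq2, without either combination library and without cells resembling doublets. Of all genes, 27.2% were called higher and 33.6% lower in neutrophils. Of 6 tested receptors that can pair with the gamma chain 4 rose (median 2.00), and of 10 adaptors 7 rose and 2 fell, Hcst (1.83) the most.

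Among dendritic cells, cDC2, which prime CD4 T cells, carried the most of all 5 genes. Against cDC2, cDC1 were lower in 5 of 5 genes, where 37.4% of 9729 genes were called and 19.3% were called lower. Fcer1g was at 707, 856, 1234, 928, 1190 and 1037 CPM in cDC2 and at 152, 234, 383, 254, 419 and 324 CPM in cDC1, without overlap. The log2 fold changes were -1.84 for Fcer1g, -1.89 for Fcgr2b, -1.76 for Fcgr1, -0.97 for Fcgr3 and -0.63 for Fcgr4, with edgeR adjusted p from 1.21e-08 to 0.0342. The last call, for Fcgr4, was lost with DESeq2 and without the aPDL1, the 2DG_aPDL1 or the 2FF_aPDL1 library. Mature dendritic cells, which carry antigen to T cells after activation, were also lower than cDC2 in 5 of 5 genes (log2 fold changes of -1.957 to -1.39, edgeR adjusted p from 2.02e-07 to 0.000309). Of 9682 genes tested there, 56.9% were called and 28.2% were called lower. Of the kinases and effectors below the ITAM, 12 of 20 fell in cDC1 and 1 rose, and 10 of 22 fell in mature dendritic cells and 6 rose. Of the adaptors, 6 of 9 fell in cDC1 and 5 of 10 in mature dendritic cells, where 3 rose. Of the phosphatases and adaptors below the ITIM, 5 of 12 fell in cDC1 and 7 of 11 in mature dendritic cells, with 2 higher in each.

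B cells carried Fcgr2b and NK cells carried Fcer1g. Fcgr2b was at 157, 114, 140, 107, 121 and 115 CPM in B cells and at 31.0, 15.3, 29.7, 17.7, 23.5 and 22.6 CPM in T cells, without overlap. Its log2 fold change over T cells was 2.56 (SE 0.0963, edgeR adjusted p = 1.29e-10), where 61% of 11832 genes were called and 29% were called higher. The other 4 genes were also called higher in B cells (0.90 to 1.41). In NK cells Fcer1g was at 1049, 1171, 1454, 1118, 1299 and 1225 CPM, and in T cells at 68.5, 66.2, 140, 81.6, 85.9 and 74.6 CPM. That is a log2 fold change of 3.93 (SE 0.0928, edgeR adjusted p = 2.9e-13), where 47.2% of 11554 genes were called.

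Fcgr3, the receptor through which NK cells bind IgG, was low in them, at 46.5, 33.7, 50.7, 35.3, 47.5 and 27.8 CPM. It exceeded T cells in 6 of 6 libraries, with a log2 fold change of 0.86 (SE 0.120, edgeR adjusted p = 3.6e-05). The control value rests on 9 UMIs of 32 cells. Neither Fcgr2b nor Fcgr4 had a UMI in these 32 cells, where the upper limit for a count of 0 (3 counts) is 15.5 CPM. Fcgr1, Fcgr2b and Fcgr4 were not called between NK and T cells (log2 differences of 0.20 to 0.39).

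Cells resembling doublets weighed on these small values. They were marked by variable genes from which the 5 genes were not excluded, and a preset share was removed. Removal can thus favor lymphocytes with RNA of these genes. The lower levels, and the fold changes and p-values after removal, are therefore partly set by the filter. Without such cells the T cell levels of the 4 receptors were between 1.25 and 4.68 CPM, and that of Fcer1g was 21.0. Fcgr2b in B cells stayed at 102 ± 26.9 CPM, whereas Fcgr1 was at 5.60 in place of 23.1, Fcgr3 at 9.32 in place of 42.5, Fcgr4 at 6.71 in place of 34.7 and Fcer1g at 38.2 in place of 172. In NK cells Fcgr1 was at 2.80 in place of 10.5, Fcgr2b at 7.26 in place of 23.6 and Fcgr4 at 2.34 in place of 16.2 CPM. Fcgr3 in NK cells was then 26.8 ± 10.0 CPM, a log2 fold change over T cells of 2.70 (edgeR adjusted p = 3.39e-09), and Fcgr2b was also called there (1.24, adjusted p = 0.00437, at 7.26 against 4.06 CPM). All 5 genes were still called in B cells, at 0.75 to 1.67 apart from Fcgr2b (4.73).

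**Figure D2:**
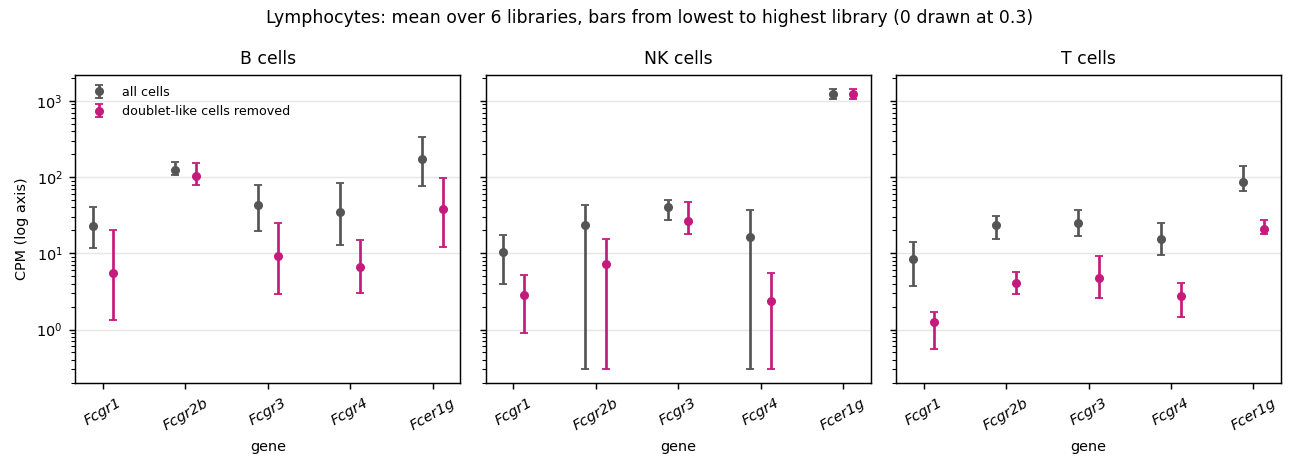
Levels of the 5 genes (CPM, log axis) in B, NK and T cells with all cells and without cells resembling simulated doublets, as the mean over 6 libraries with a bar from the lowest to the highest library (0 is drawn at 0.3). Fcgr2b in B cells and Fcer1g in NK cells stay near 102 and 1218 CPM, and the other values are lower without such cells.

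In B cells, 9 of 22 kinases and effectors rose and 7 fell against T cells, near the 29% of all genes called higher and the 32% called lower, with Btk (5.75) and Syk (5.58) highest and Zap70, the T cell counterpart of Syk, lowest (-4.74). Of 7 tested other Fc receptors 6 rose (median 8.18), among them Fcmr, the receptor of IgM (9.62), and Fcer2a, the low-affinity receptor of IgE (8.50). Cd22, an inhibitory receptor on the ITIM list, was 8.34 higher in B cells than in T cells on the log2 scale, and Inpp5d 1.86 higher. In NK cells 12 of 22 kinases and effectors rose and 5 fell, where 21.8% of all genes were called higher and 25.4% lower, and Tyrobp was 4.25 above T cells.

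Interferon is a known inducer of FcγRI, so classical monocytes were ranked within each library by the share of their UMIs from 11 interferon-stimulated genes (such as Isg15, Ifit1 and Rsad2), and the upper and lower terciles were compared. The middle tercile was left out. The median share was 0.110% to 0.465% in the upper and 0.0% to 0.0223% in the lower tercile, so the terciles are ranges of a score and not cell types. In the control library no cell of the lower tercile had a UMI of these genes. The summed depth was similar, 2530646 to 6785523 UMIs in the upper and 2795891 to 7197353 in the lower terciles.

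Fcgr1 and Fcgr4 were clearly higher in the upper tercile, Fcgr3 and Fcer1g slightly. Of 11517 genes tested, 35.7% were called and 18.5% were called higher. Fcgr1 was at 538, 393, 488, 429, 512 and 625 CPM in the upper and at 229, 197, 271, 199, 207 and 223 CPM in the lower terciles, without overlap. The log2 fold change was 1.33 (SE 0.0874, edgeR adjusted p = 3.44e-07). Fcgr4 was at 304, 331, 519, 304, 411 and 423 CPM in the upper and at 136, 201, 370, 182, 280 and 294 CPM in the lower terciles. The groups overlapped between libraries, but the upper tercile was higher within 6 of 6, with a log2 fold change of 0.86 (SE 0.0752, edgeR adjusted p = 4.19e-06).

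Fcer1g rose by 0.42 on the log2 scale (SE 0.0433, edgeR adjusted p = 1.6e-05) and Fcgr3 by 0.30 (SE 0.0533, edgeR adjusted p = 0.00097), each in 6 of 6 libraries. Fcgr2b was called at 0.22 (SE 0.0572, edgeR adjusted p = 0.0111), but its CPM was higher in 4 of 6 libraries only, at a mean of 586 against 566. The 5 genes were called in each test that left out a library. Classical monocytes also differed between clusters. Fcgr1 was at 475 CPM in the control and 530 to 578 in the others in a cluster led by Ccl8 and Mrc1. It was at 264 and 171 to 279 CPM in one led by Stxbp6 and Chil3. The cluster make-up of the terciles was not compared, and the cause of their difference was not tested.

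**Figure D3:**
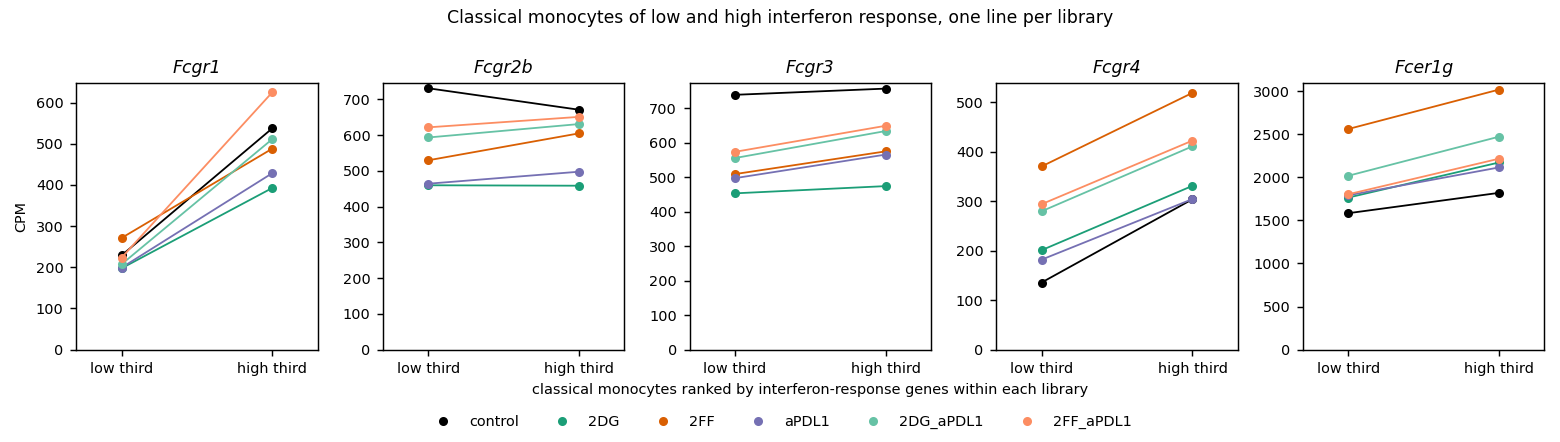
Levels (CPM) of the 5 genes in classical monocytes of the lower and upper tercile of interferon response, 1 line per library. Every line rises for Fcgr1 (mean 221 to 497 CPM), Fcgr4 (244 to 382), Fcgr3 and Fcer1g, and the lines for Fcgr2b run nearly flat.

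Of 19 interferon genes measured, 17 rose and none fell, with a median of 3.88, but 11 of them had made the split. Among the 8 others, Socs1, a brake on interferon signaling (1.34), Gbp2 (1.35), Irgm1 (1.38), Cxcl9 (1.29) and Cxcl10 (2.47) rose, while Irf1 (0.18) and Ciita (-0.21) were not called. Trim21, an Fc receptor of the cytosol, rose by 1.54. Kinases and effectors moved little, with 8 of 22 higher, 2 lower and a median of 0.0574, and of 10 adaptors 2 rose.

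The balance of activating to inhibitory receptors was taken as the UMIs of Fcgr1, Fcgr3 and Fcgr4 together over those of Fcgr2b. In this method a UMI is counted once per molecule, so the ratio needs no scaling by length, but capture can differ between genes and only classes and libraries are compared. Neutrophils had the highest ratio, 6.32 ± 1.06 (SD, n = 6; 4.81 to 7.10). Nonclassical monocytes had 2.92 ± 0.514, macrophages 2.20 ± 0.234 and classical monocytes 2.15 ± 0.182. Neutrophils lay above these 3 classes in every library. cDC2 had 1.28 ± 0.390 and B cells 0.787 ± 0.399.

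Within the ratio, Fcgr3 and Fcgr2b ran in parallel in macrophages and classical monocytes. Their UMIs stood at 0.986 ± 0.0458 and 1.02 ± 0.0459 to 1 in these classes, against 4.12 ± 1.11 in neutrophils. Fcgr4 over Fcgr2b varied more, at 0.757 ± 0.229 in macrophages and 1.59 ± 0.310 in nonclassical monocytes. In classical monocytes the ratio of activating receptors to Fcgr2b was 2.55 ± 0.10 in the upper and 1.82 ± 0.217 in the lower tercile of interferon response. Without cells resembling doublets the ratio was 8.18 in neutrophils and 0.192 in B cells.

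**Figure D4:**
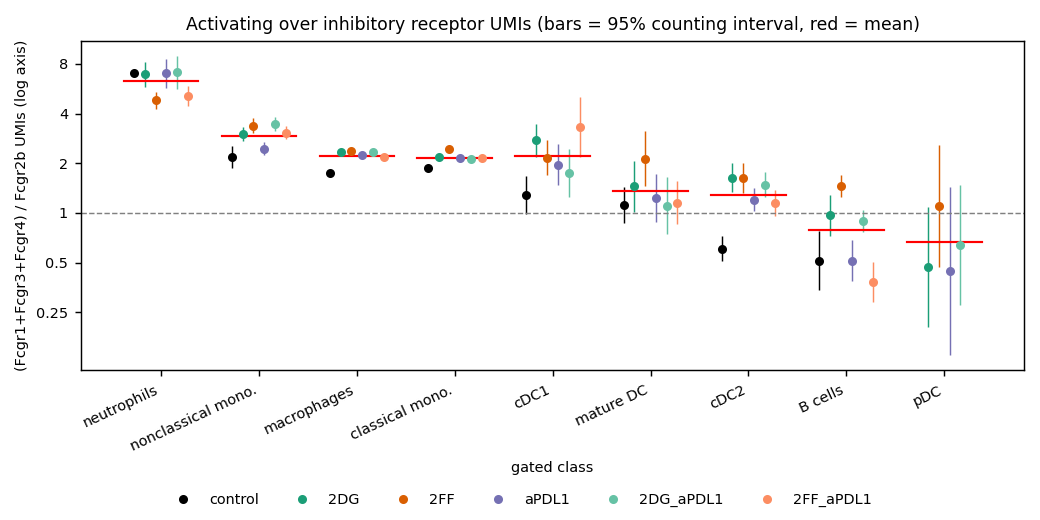
Ratio of the UMIs of Fcgr1, Fcgr3 and Fcgr4 to those of Fcgr2b in each class, 1 point per library with its 95% counting interval and a red line at the mean. Neutrophils sit between 4.81 and 7.10 and macrophages between 1.75 and 2.37, with the control lowest in macrophages.

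Single treatments are given side by side with no test, since each has 1 library. The antibody, which 3 libraries share, is tested further on. All 5 other libraries are set against the same control, so their ratios share its error. Ratios are log2 ratios of CPM + 5, which understate the change of low genes, and intervals are 95% exact Poisson intervals that cover counting error only.

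In macrophages the control library was the lowest of 6 for each of the 5 genes, and furthest for Fcgr4. Fcgr4 was at 180 CPM (interval 172 to 188) in the control and at 450 to 767 CPM in the other 5 libraries. Their log2 ratios over the control were 1.3 to 2.06, all at 1 or more. The share of genes that reached 1 in macrophages was 1.03% for aPDL1, 1.08% for 2DG, 1.57% for 2FF, 2.44% for 2DG_aPDL1 and 1.35% for 2FF_aPDL1. Fcgr1 was at 211, 322, 403, 291, 370 and 346 CPM, with log2 ratios of 0.45 to 0.91. Fcer1g was at 1409, 2014, 2714, 1895, 2409 and 1965 CPM, with log2 ratios of 0.43 to 0.94.

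Fcgr2b and Fcgr3 stood less apart in macrophages. Fcgr2b was at 563, 668, 813, 604, 815 and 743 CPM and Fcgr3 at 593, 678, 771, 609, 766 and 708 CPM. Their log2 ratios over the control were 0.10 to 0.53 and 0.04 to 0.38. The ratio of activating receptors to Fcgr2b was 1.75 in the control and 2.19 to 2.37 in the other libraries.

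In classical monocytes the control was lowest in CPM for Fcgr4 and Fcer1g but highest for Fcgr2b and Fcgr3. The low place depended on scaling. With TMM factors (0.910 in the control, 1.066 in aPDL1) the aPDL1 library lay below the control for Fcgr4 and Fcer1g. Fcgr2b was at 691, 456, 547, 470, 595 and 634 CPM, and Fcgr3 at 745, 462, 542, 505, 595 and 613 CPM. Their log2 ratios over the control were -0.60 to -0.12 and -0.68 to -0.28. For Fcgr4 they were 0.16 to 1.10 and for Fcer1g 0.17 to 0.69. Fcgr1 lay on both sides of the control, at -0.41 to 0.13.

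Neutrophils of the control held the most Fcgr3 and the least Fcgr4. Fcgr3 was at 759, 392, 460, 492, 376 and 489 CPM, log2 ratios of -1.0 to -0.62. Fcgr4 was at 137, 223, 322, 194, 252 and 258 CPM, log2 ratios of 0.49 to 1.2. In nonclassical monocytes Fcgr4 lay on both sides of the control (-0.41 to 0.26) and Fcgr2b below it (-0.72 to -0.27). In cDC2, Fcgr4 rested on 16 UMIs in the control and 50 to 111 in the others (14.3 against 36.7 to 95.9 CPM), and Fcgr2b was at 297 against 112 to 206 CPM.

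**Figure D5:**
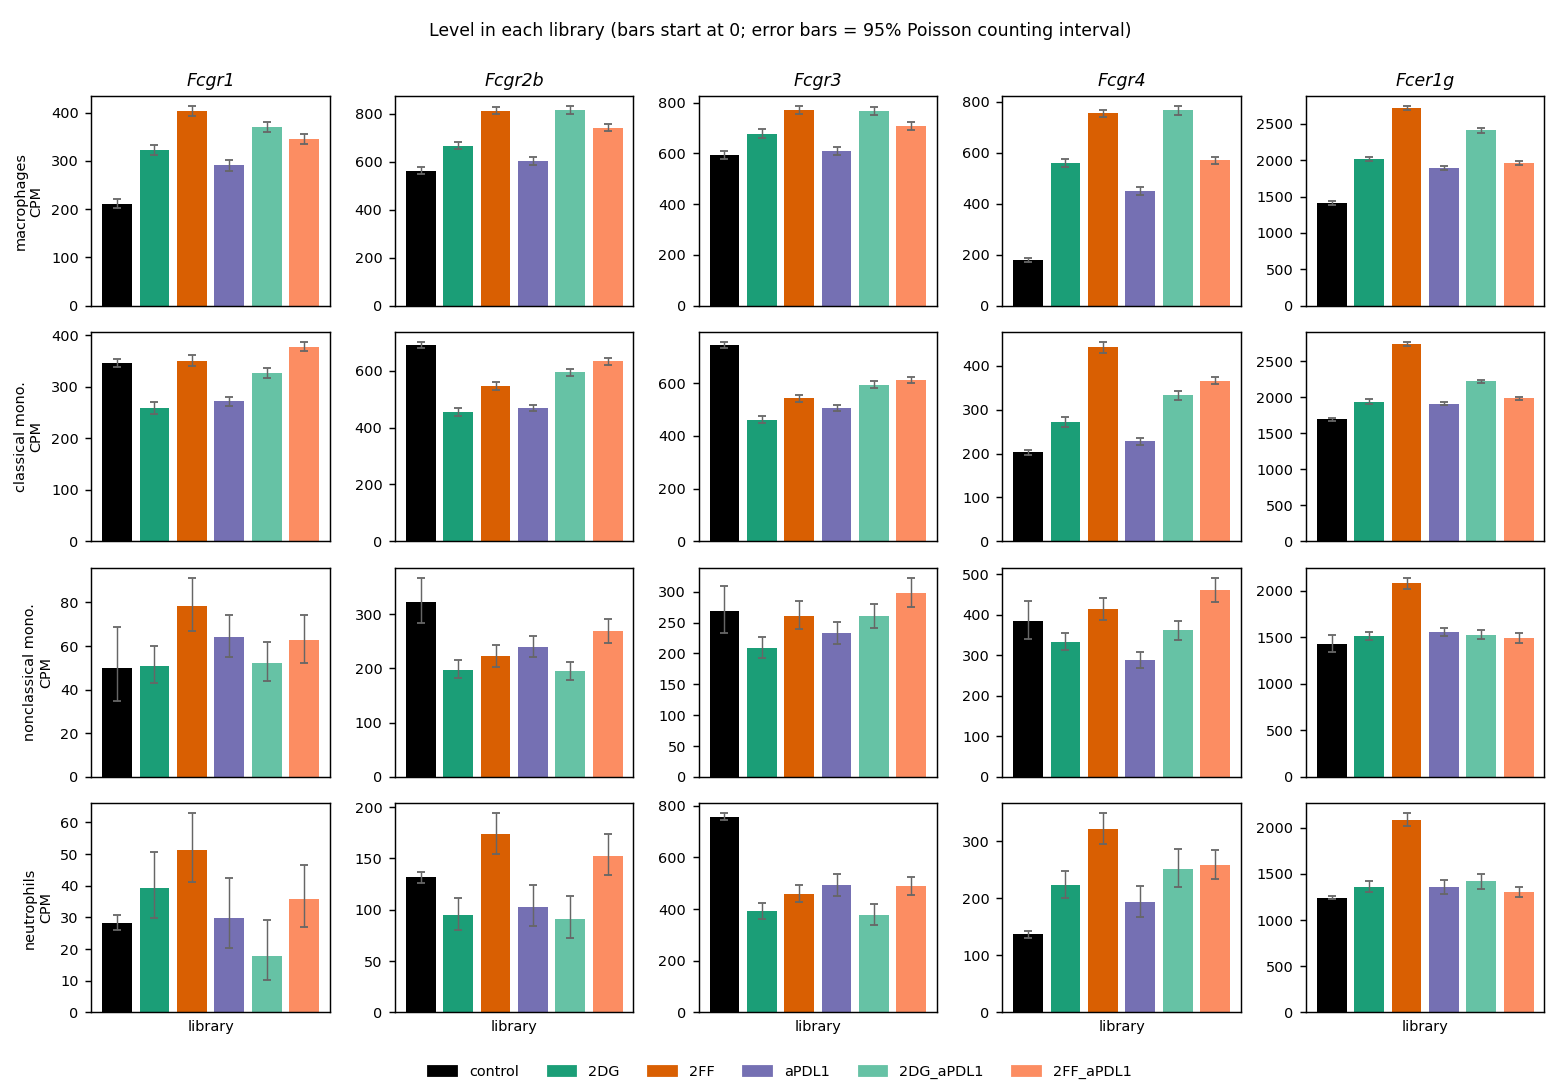
Level (CPM, bars from 0, with 95% Poisson counting intervals) of each gene in each library for the myeloid classes. The control bar is the lowest for Fcgr4 in macrophages (180 against 450 to 767) and the highest for Fcgr3 in neutrophils (759 against 376 to 492).

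Other features of the control library differed as well. The 19 interferon genes summed to 1493 CPM in control macrophages and 3444 to 4598 in the others, and to 1564 and 3533 to 5743 CPM in classical monocytes. They summed to 2625 and 5192 to 8428 CPM in neutrophils, and to 744 and 1928.5 to 2510 CPM in nonclassical monocytes. In this last class Fcgr4 lay on both sides of the control. The 8 neutrophil markers summed to 280 CPM in control macrophages and 73.3 to 93.6 in the others, and to 1175 and 212 to 546 CPM in classical monocytes. The 12 macrophage markers summed to 1754 CPM in control neutrophils and 594 to 1387 in the others, and to 10857 and 4032 to 5409 CPM in classical monocytes. The control also drew its cells from other clusters. Of its macrophages 35.3% lay in a cluster led by Fcrls and Mgl2 and 33.9% in one led by Mt2 and Spp1, while 41.9% to 68.7% of those of each other library lay in a cluster led by Ccl8 and Mrc1, with Fcgr4 itself among its leading genes. Of its classical monocytes 56.6% lay in the Mt2 and Spp1 cluster, which was not among the 2 leading clusters of classical monocytes in any other library. Of its neutrophils 70.8% lay in a cluster led by Cstdc4 and G0s2, while 56.4% to 78.6% of those of the others lay in one led by Camp and Ngp, granule genes of younger neutrophils. The part of these features in the results was not tested.

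Values within a cluster were computed after the data had been seen, on clusters that used all variable genes. For Fcgr4 in macrophages, the log2 ratios over the control were 1.05 to 1.51 in the Ccl8 and Mrc1 cluster, 0.36 to 1.35 in the Fcrls cluster, 0.80 to 1.62 in a cluster led by Hmga2 and 0.08 to 0.94 in the Mt2 and Spp1 cluster, above the control in 5 of 5 libraries each time. The Hmga2 cluster holds the tumor markers Krt8 and Krt18 and no macrophage marker among its 10 leading genes, although its cells here passed the macrophage gate. It held 19.2% of the gated macrophages in the 2DG library and 24.6% in 2FF_aPDL1, against 66 of 958 in the control. The macrophage levels include these cells. Fcgr3 in macrophages went both ways. It was above the control in 5 of 5 libraries in the Ccl8 and Mrc1 cluster (0.00527 to 0.18) and in 4 of 5 in the Hmga2 cluster (-0.0489 to 0.58), and below it in 5 of 5 in the Fcrls cluster (-0.25 to -0.04) and in the Mt2 and Spp1 cluster (-0.26 to -0.09). In classical monocytes Fcgr2b was above the control in 4 of 5 libraries in the Ccl8 and Mrc1 cluster and in 2 of 5 in a cluster led by Adgrl3 and Adgre4, and below it in 5 of 5 in the Mt2 and Spp1 cluster and in one led by Stxbp6 and Chil3. Fcgr3 in classical monocytes was above the control in 2, 3, 0 and 2 of 5 libraries in these clusters, in the same order. In a cluster of mostly T cell markers, with 22 classical monocytes in the control, both were below it in 5 of 5. Fcgr3 in neutrophils stayed below the control in 5 of 5 libraries, at -0.95 to -0.37 in the Cstdc4 cluster and -0.51 to -0.15 in the Camp cluster. Fcgr4 in neutrophils was above the control in 5 of 5 libraries in the Camp cluster (0.40 to 1.05) and in 2 of 5 in the Cstdc4 cluster (-0.22 to 0.72).

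The 2FF library had the highest Fcer1g of the 6 in macrophages (2714 CPM), both monocyte classes (2738 and 2080), neutrophils (2090), cDC2 (1234), NK cells (1454) and B cells (334). In cDC1 (419 CPM) and mature dendritic cells (370) the 2DG_aPDL1 library was the highest instead. T cells of the 2FF library, the background class, were highest as well, at 140 CPM against 66.2 to 85.9. Whether stray RNA has a part in the higher levels of the 2FF library was not tested.

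An antibody can engage Fc receptors by its own Fc part. The control was itself given a rat IgG, and the study's methods do not say whether the 2DG and 2FF mice were. The comparison below is therefore not simply one of an antibody against none. The libraries with and without anti-PD-L1 were compared within each class, with the inhibitor (none, 2DG or 2FF) as a term in edgeR. This gives 3 libraries on each side and 2 residual degrees of freedom, and assumes that the antibody acts alike over the inhibitors. None of 45 tests of the 5 genes in 9 classes was called by edgeR or by DESeq2, and 4 had an unadjusted edgeR p under 0.05. The share of genes called was 0% in neutrophils, classical monocytes, nonclassical monocytes, macrophages, mature dendritic cells and B cells, 0.0103% in cDC1, 0.16% in cDC2 and 0.0612% in NK cells. At an unadjusted edgeR p under 0.05 there were 145 of 8603 genes in neutrophils, 546 of 13101 in classical monocytes, 568 of 9794 in nonclassical monocytes, 536 of 13130 in macrophages, 558 of 9677 in cDC1, 942 of 8745 in cDC2, 576 of 8858 in mature dendritic cells, 276 of 9368 in B cells and 309 of 9810 in NK cells. These counts of calls changed when a library was left out. Its partner then stands alone at that inhibitor, so such a fit rests on the other pairs of libraries. It has fewer than 2 residual degrees of freedom. Leaving out either library of a pair is therefore nearly the same fit, not a separate test. Without the aPDL1 or the control library 404 and 362 genes were called in classical monocytes, 253 and 234 in cDC2, 70 and 114 in nonclassical monocytes and 76 and 73 in macrophages. Leaving out each library in turn gave 0 to 18 called genes in neutrophils, 2 to 36 in B cells, 0 to 54 in cDC1, 0 to 106 in mature dendritic cells and 12 to 110 in NK cells.

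Fcgr4 in cDC2 had the smallest adjusted p of the 45. It was at 14.3, 37.1 and 63.7 CPM without and at 36.7, 95.9 and 64.3 CPM with the antibody (no inhibitor, 2DG and 2FF), a log2 difference of 0.90 (SE 0.289, edgeR adjusted p = 0.251). The pair of 2FF libraries gave a log2 ratio of 0.01 and the other pairs 1.11 and 1.26. It was called without a filter on low counts (0.93, edgeR adjusted p = 0.0209), where 931 genes were called over the 9 classes in place of 21. Without the 2FF or the 2FF_aPDL1 library, fits that rest on the same other pairs, it was at 1.41 and 1.40. Fcgr1 in cDC2 was at 0.59 (SE 0.229, edgeR adjusted p = 0.361), with all 3 pairs above 0 (1.08, 0.44 and 0.07).

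In macrophages Fcgr4 stood at 0.49 (SE 0.310, edgeR adjusted p = 0.9996). Its 3 pairs went both ways, with log2 ratios of 1.3 with no inhibitor, 0.45 with 2DG and -0.40 with 2FF. Fcer1g in macrophages did the same (0.43, 0.26 and -0.46). The 5 genes in classical monocytes lay between -0.0369 and 0.0563 on the log2 scale, with SE of 0.189 to 0.280.

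In B cells Fcer1g was at 133, 231 and 334 CPM without and 106, 150 and 76.9 CPM with the antibody, and Fcgr1 at 23.0, 28.8 and 40.4 against 14.1, 20.7 and 11.6 CPM. Their log2 differences were -1.04 (SE 0.303, edgeR adjusted p = 0.9997) and -1.005 (SE 0.327, edgeR adjusted p = 0.9997). Without cells resembling doublets Fcer1g was at -0.49. Fcer1g in B cells was called without a filter on low counts (-0.99, edgeR adjusted p = 0.00344), the setting with 931 called genes over the 9 classes. Fcgr2b was called in some fits that left out a library, in cDC2 (0.77 without the control or the aPDL1 library), in mature dendritic cells (1.16 without the aPDL1 library) and in NK cells (2.45 without the 2FF and 2.44 without the 2FF_aPDL1 library). The 2 fits named for a class rest on the same other pairs of libraries. In NK cells Fcgr2b was at 23.6 CPM, against 23.3 in T cells, and at 7.26 without cells resembling doublets.

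No gene of the 6 pathway and interferon lists was called for the antibody in any class. In 8 of 9 classes (all but B cells) the interferon genes had the highest median of the lists, 0.59 in macrophages, 0.80 in classical monocytes and 0.95 in cDC2, against medians of -0.000903, -0.00797 and -0.00663 over all genes tested. The kinases and effectors had medians of -0.0109 to 0.20 over the 9 classes.

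Across all 64 sums of class and library with at least 20 cells, the genes whose pattern was most like each receptor were listed among 8952 genes. Points of 1 library or class are not independent, so these r are descriptions. For Fcgr1 they were Tgfbi (Pearson r = 0.946 on log2(CPM + 5)), Ms4a6d, Pla2g4a, Fcgr2b (0.902) and Gab1, and Fcgr2b shared the first 3. Fcgr3 was most like Ccl6 (0.955), a chemokine, and Fcgr4 most like Sirpb1c (0.947), with Lyz2, the lysozyme of myeloid cells, also among its 5. Fcer1g was most like Tyrobp (0.924). Within the 5 genes, r was highest for Fcgr3 and Fcgr4 (0.921) and lowest for Fcgr2b and Fcer1g (0.595).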

How the data were processed

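Single-cell RNA of 6 mice, 1 per treatment, was measured with the Chromium 3' kit. The deposited matrices hold UMI counts as the authors made them, with no normalization. The file headers and the study's methods name Cell Ranger 7.0.0, the labels Cell Ranger 3.1.0, and both point to the mouse genome mm10. Cells with at least 250 genes and at most 5% mitochondrial UMIs were kept. A cell joined a class if it carried at least 3 of its markers and a share of them that led every other class by 10 percentage points. Counts were summed per class and library where at least 20 cells were present and divided by the summed UMIs (CPM). Intervals and upper limits for a count of 0 (3 counts) cover counting error only.

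Class contrasts were fitted with edgeR 4.0.16 (quasi-likelihood, TMM, low-count filter, limma 3.58.1, R 4.3.3) with library as block and 5 residual degrees of freedom, and the antibody with the inhibitor as term and 2. DESeq2 1.42.0 was an alternative, as were another normalization, no filter, a stricter gate, a 10% mitochondrial limit, a pseudocount of 1 in place of 5 CPM, gating by cluster and leaving out each library. Added after the data were examined were removal of cells resembling doublets and values within clusters. Doublets were simulated per library and marked at 0.8% per 1000 cells by 30 neighbors, on variable genes that could include the 5 genes. Clusters used 2000 variable genes, 30 components, 15 neighbors and leidenalg 0.10.2 at resolution 1, with Python 3.11.15, numpy 2.4.6, scipy 1.17.1 and scikit-learn 1.9.0. Scripts were tested on simulated data.

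Promoters and gene positions came from RefSeq (GRCm38.p6) and GENCODE annotation of GRCm38. The members and the lists (other Fc receptors, adaptors, ITAM kinases and effectors, ITIM phosphatases and adaptors, partners of Fcer1g, interferon genes) were chosen with earlier results of these data known. The text names the 5 members, at most the 4 highest and 4 lowest genes of a list together with genes of textbook role, and the 5 genes of highest Pearson r to each member among genes over 20 CPM. The p-values of the class contrasts measure how far the difference between classes varied over 6 differently treated mice. Those of the antibody test rest on the spread left after the inhibitor and antibody terms.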

Additional observations from a re-analysis of the deposited data

Results flagged for a closer look

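Each of the following was noted because every treated library moved one way from the control in one class and the other way in another, and the difference between classes was not tested. The 5 treated libraries share 1 control. For Fcgr2b, the log2 ratios over the control were 0.0999 to 0.530 in macrophages, -0.596 to -0.124 in classical monocytes and -0.719 to -0.266 in nonclassical monocytes. For Fcgr3 they were 0.0379 to 0.377 in macrophages, -0.684 to -0.280 in classical monocytes and -1.002 to -0.620 in neutrophils. In macrophages the counting interval of the Fcgr3 ratio lay above 0 in 4 of 5 libraries only. Within macrophage clusters, Fcgr3 was below the control in 5 of 5 libraries in those led by Fcrls and by Mt2 and Spp1, above it in 5 of 5 in that led by Ccl8 and in 4 of 5 in that led by Hmga2. Within classical monocyte clusters, Fcgr2b was above the control in 4 of 5 libraries in that led by Ccl8, and Fcgr3 in 3 of 5 in that led by Adgrl3. Their cause was not tested.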

How the results depend on the processing

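The limits lie in the design. Each treatment is 1 mouse, the control library stands apart in its cells, and the antibody test has 2 residual degrees of freedom. The replicate number pairs nothing, because each treatment has 1 library. The class contrasts were blocked by library and the antibody test by inhibitor. Leaving out a library from the antibody test leaves its partner alone at that inhibitor, so such a fit rests on the other pairs. Low levels in lymphocytes rest on few UMIs and on cells resembling doublets.

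Of the counts of the 5 genes called, 84 of 90 stayed within 1.5 times the value given in the class contrasts and 108 of 117 for the antibody. For the antibody the value given was 0 in every class. Counts of calls over all genes tested moved further than 1.5 times in 72 alternatives for the antibody and in 1 for the class contrasts. Between macrophages and classical monocytes 2 of the 5 genes were called with DESeq2, and 0 to 3 when a library was left out. For the antibody, 1 of the 5 genes was called without a filter in cDC2 and 1 in B cells, and leaving out a library gave 0 to 1 in cDC2, mature dendritic cells and NK cells. Leaving out a library also moved the antibody's log2 difference of Fcgr2b from -0.0402 to 0.768 in cDC2 and from -0.130 to 2.45 in NK cells.

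Some small differences changed sign. The log2 ratio of Fcgr1 in macrophages over classical monocytes was -0.00301 with a stricter gate and -0.00766 without cells resembling doublets, and -0.0448 to 0.128 without single libraries. That of Fcer1g in classical monocytes over macrophages was -0.107 with classes from clusters and -0.0263 to 0.0386 without single libraries. Fcgr3 in neutrophils against classical monocytes was 0.0914 with DESeq2, 0.0205 without cells resembling doublets and -0.0990 to 0.0897 without single libraries.

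For the median log2 ratio over the control, Fcgr4 in macrophages was 1.76 with TMM scaling and 1.21, 0.375 and 1.08 within the clusters led by Ccl8, by Mt2 and Spp1 and by Fcrls. Fcgr2b was -0.0523 in macrophages of the Mt2 and Spp1 cluster and 0.140 in classical monocytes of the Ccl8 cluster, Fcgr4 was -0.0382 in neutrophils of the Cstdc4 cluster, and Fcer1g in neutrophils was -0.141 with TMM scaling. The ratio of activating receptors to Fcgr2b was 8.18 in neutrophils, 0.277 in plasmacytoid dendritic cells and 0.192 in B cells without cells resembling doublets. With classes from clusters it was 1.91 in mature and 0.194 in plasmacytoid dendritic cells. The cause of these changes was not tested.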
